A study of Mus musculus with 6 samples.

Results

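Splicing factor genes were examined in long-term haematopoietic stem cells (LT-HSCs) of mice with a Dcaf8 knockout and of wild-type mice. Dcaf8 encodes a protein that recruits substrates to ubiquitin ligases built on CUL4 and DDB1. The members, chosen by symbol and by their counts in these libraries, were the protein-coding mouse genes whose symbols begin with Srsf and a digit, Hnrnp, Sf3a, Sf3b or Snrp, together with Bclaf1 and Thrap3, with at least 10 counts in 3 or more of the 6 libraries. This gave 54 genes of the 55357 in the table, of which 21137 had any count. They comprised 11 Srsf, 20 Hnrnp, 9 Sf3 and 12 Snrp genes and the pair Bclaf1 and Thrap3. Of 59 matching symbols 5 were processed pseudogenes and were left out, and 0 protein-coding candidates failed the count minimum. The member chosen nearest to that limit was Srsf12, with 142, 0 and 0 counts in knockout replicates 1 to 3, against 75, 100 and 0 in wild-type replicates 1 to 3. Bclaf1 had been singled out by its small p between the genotypes in these same libraries, so its difference is given as a description and not as a test. The other names were proposed with earlier results of the same contrast known.

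The libraries came from bone marrow of young mice, 3 labelled Dcaf8 KO and 3 labelled wild-type, each from 50 sorted Lin-Sca-1+c-Kit+CD150+CD48- cells. The sources used here do not state how the knockout allele was made, the strain or the sex of the mice. In such libraries fewer cells of a type and less RNA per cell cannot be told apart.

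Most introns are removed by the spliceosome, which is built for each intron from small nuclear ribonucleoproteins (snRNPs). SR proteins, named for their arginine-serine repeats, bind exons and recruit snRNPs to nearby splice sites, whereas hnRNP proteins coat the nascent transcript and often oppose them. Several of these proteins bind their own transcripts and promote inclusion of poison exons, which send the message to nonsense-mediated decay. In human blood, genes of this machinery, SF3B1, SRSF2, U2AF1 and ZRSR2 among them, are recurrently mutated in myelodysplastic syndromes.

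Total counts per library ranged from 14461864 to 22386387 in knockout and from 17790290 to 20881139 in wild-type. Dcaf8 itself stood at 52.6 ± 19.2 TMM-normalised CPM (a gene's share of the library's counts on a common scale, after correction for composition) in knockout and 262 ± 50.7 in wild-type cells (SD, n = 3 each), without overlap, so reads of the gene were lower but not absent in knockout. The LT-HSC markers Kit, Ly6a, Slamf1, Procr, Hlf and Mecom, of which the first 3 encode markers of the gate, were counted in every library, summing to 976 to 1248 CPM in knockout and 856 to 1182 in wild-type. Cd48 stood at 9.78 to 34.4 CPM in knockout and 0.0501 to 11.7 CPM in wild-type. Wild-type replicate 2 stood apart through 9 neutrophil genes, which summed to 6217 CPM there, against 6.79 to 28.1 in knockout and at most 29.4 in the other wild-type libraries. Of the markers listed for other cell types, Car1, Adgre1, Ms4a1 and Cd3e had no counts in any library. Knockout replicate 3 alone had no counts of the Y-linked Ddx3y, and its Xist level was 50.7 CPM, against at most 1.24 CPM in the other libraries, the pattern of a female. Wild-type replicate 3 contained the fewest genes, 15244, against 16508 to 17015 in knockout and at most 16393 in the other wild-type libraries. The part of these library differences in the results that follow was not tested, beyond the values given without single libraries.

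The members are abundant genes of LT-HSCs. Together they took 1.54, 1.67 and 1.75% of all counts in knockout replicates 1 to 3, against 1.71, 1.69 and 1.66% in wild-type replicates 1 to 3. Their median level was 193 CPM in knockout and 194 CPM in wild-type, against 28.3 and 27.3 CPM over all 14592 genes tested. In every library 36 of the 54 stood at 100 CPM or more, and 4 stood under 10 CPM in some library. Levels also varied little between mice. The median coefficient of variation of a member was 13.8% among knockout and 13.0% among wild-type libraries, against 28.7 and 36.5% over all genes tested, which are mostly less abundant.

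With Benjamini-Hochberg adjustment over all genes in edgeR's quasi-likelihood test, 0 of the 54 members passed an adjusted p of 0.05, as did 0 of all genes tested (0% in each direction). Dcaf8 itself, with a log2 fold change of -2.28 ± 0.28 (SE), did not pass either (edgeR adjusted p = 0.739). The lack of edgeR calls therefore says little about single members. DESeq2 did call Dcaf8 (DESeq2 adjusted p = 1.89e-09). At an unadjusted p under 0.05 there were 3 members with lower values in knockout, Bclaf1, Srsf5 and Hnrnph3 (5.56%), beside 2.35% of all genes, and 1 with higher values, Sf3b3 (1.85%), beside 3.47%. In either direction these were 4 members, beside 5.82% of all genes. Without Bclaf1, whose p had chosen it, 2 of 53 had lower values at that p. DESeq2 gave 6 members an unadjusted p under 0.05, 3 higher and 3 lower, beside 3.32 and 2.36% of the genes it tested and 5.68% in either direction. It called 2, Hnrnph3 and Bclaf1, the latter chosen by its small p in these libraries, both lower in knockout. Of the genes it tested it called 0.262% lower and 0.494% higher. The DESeq2 shares are over the 20237 genes to which it gave a p. Limma-voom called 0 members and gave 1 higher and 3 lower at an unadjusted p under 0.05, beside 3.16 and 2.15% of all genes and 5.31% in either direction. The 6 libraries did not overlap between genotypes for 8 members, 4 lower and 4 higher in knockout. That is 14.8% of the members, beside 10.3% of all genes (4.43% lower, 5.91% higher). Bclaf1, chosen by its small p in these libraries, is among them, and without it 3 of 53 were lower and 4 higher. The count of 4 at an unadjusted p became 2 without knockout replicate 3 and 7 without wild-type replicate 1. The shares of all genes at that p in those fits are not given here, so these counts have no background. The median log2 fold change of the members was -0.03, against 0.01 over all genes, and 31 of 54 lay lower in knockout, where 49.1% of all genes did. That median was 0.02 without knockout replicate 1 and -0.11 without knockout replicate 3. No member differed by a log2 fold change of 1 or more in size, which 14.3% of all genes did, and 22 lay within 0.1 of 0. All genes are mostly less abundant and less precisely fitted, with a median SE of 0.47, against 0.18 for the members. Leaving out 1 library moved the log2 fold change by over 1.5 times for 44 of the 54 members and turned its sign for 29. The 10 that moved less were Bclaf1, Thrap3, Srsf5, Hnrnph3, Hnrnpl, Sf3b3, Sf3a1, Snrpb2, Snrpc and Snrpg. A fold change that is large beside its SE moves less by this measure, so the list is not separate support. The shares of all genes that moved or turned sign are not given here.

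**Figure D1:**
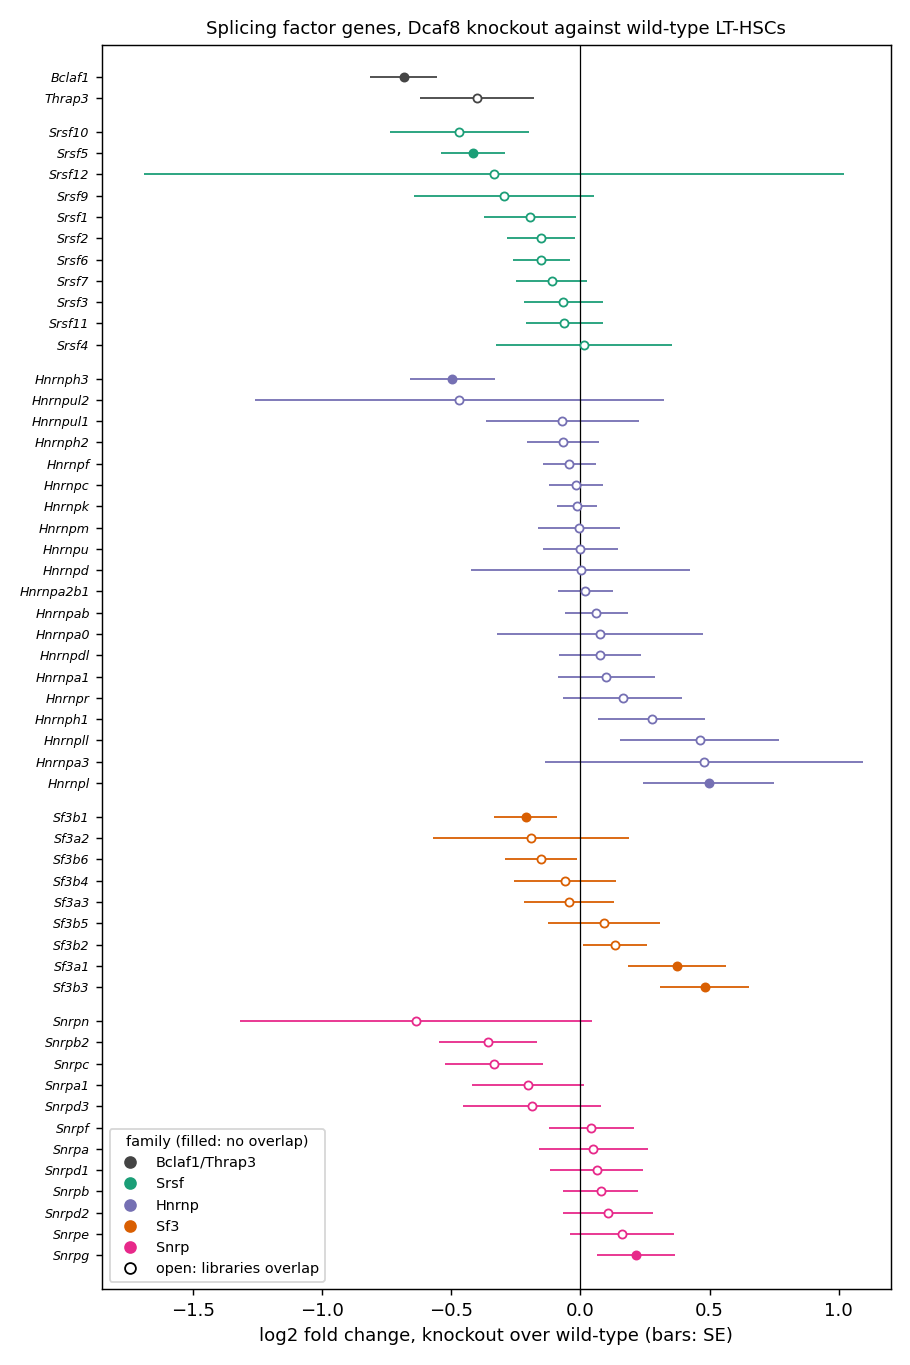
Each point is the log2 fold change of a member, knockout over wild-type (x axis), from edgeR with 3 libraries per genotype, bars are its SE, and filled points mark the 8 genes whose libraries did not overlap. Of 11 Srsf genes 10 lie left of 0, and Bclaf1 lies farthest left at -0.68.

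The starting regions of the 4 members with an unadjusted p under 0.05 follow, to set genes with lower and higher values in knockout side by side. Each runs 5′ to 3′ on the gene's strand, from 250 bases before to 50 after the start, as given by RefSeq on GRCm38.p6. Capitals mark matches on either strand to CACGTG (an E-box, bound by MYC and its partners), CCGGAAGT (a motif of ETS factors), CCAAT (bound by NF-Y) or GGGCGG (a GC box). Bclaf1 lies at chr10:20312219-20312518 on the plus strand, Srsf5 at chr12:80945249-80945548 on the plus strand, Hnrnph3 at chr10:63023800-63024099 on the minus strand and Sf3b3 at chr8:110846754-110847053 on the minus strand.
Bclaf1: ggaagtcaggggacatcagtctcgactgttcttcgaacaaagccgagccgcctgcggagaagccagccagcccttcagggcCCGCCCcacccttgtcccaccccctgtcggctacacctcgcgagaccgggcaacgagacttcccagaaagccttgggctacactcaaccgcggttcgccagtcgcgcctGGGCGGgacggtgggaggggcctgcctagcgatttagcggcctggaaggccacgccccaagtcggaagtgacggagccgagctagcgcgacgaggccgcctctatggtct
Srsf5: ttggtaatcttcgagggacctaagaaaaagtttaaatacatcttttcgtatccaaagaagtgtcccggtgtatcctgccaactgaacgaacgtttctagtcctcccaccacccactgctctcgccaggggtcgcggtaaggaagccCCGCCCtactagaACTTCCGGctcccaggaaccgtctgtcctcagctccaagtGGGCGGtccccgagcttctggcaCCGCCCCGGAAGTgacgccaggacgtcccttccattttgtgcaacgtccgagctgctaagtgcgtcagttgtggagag
Hnrnph3: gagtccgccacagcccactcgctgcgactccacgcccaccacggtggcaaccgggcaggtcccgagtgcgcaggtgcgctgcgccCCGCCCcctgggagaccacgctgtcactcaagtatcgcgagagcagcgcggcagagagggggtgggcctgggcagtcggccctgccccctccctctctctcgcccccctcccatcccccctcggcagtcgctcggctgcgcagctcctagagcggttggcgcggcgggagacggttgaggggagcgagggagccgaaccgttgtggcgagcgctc
Sf3b3: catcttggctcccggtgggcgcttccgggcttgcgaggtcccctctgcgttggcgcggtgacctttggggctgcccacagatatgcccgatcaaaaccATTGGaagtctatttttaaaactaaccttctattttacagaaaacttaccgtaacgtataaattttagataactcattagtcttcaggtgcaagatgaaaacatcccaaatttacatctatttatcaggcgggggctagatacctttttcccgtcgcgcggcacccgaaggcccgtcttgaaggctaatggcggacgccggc
The Bclaf1 window holds 2 GC boxes, that of Srsf5 3 GC boxes and 2 ETS matches, that of Hnrnph3 1 GC box and that of Sf3b3 1 CCAAT. A start region was at hand for 48 of the 54 members, 65 regions in all. The ETS letters occurred in 16.9% of these regions, against 3.89% of all 32851 regions in the table. For the GC box the shares were 67.7 and 35.7%, for the E-box 12.3 and 7.15%, and for CCAAT 43.1 and 37.4%. Some members have several regions, a few of which overlap almost fully, so 1 match can count more than once. Counted per member, 9 of the 48 had the ETS letters in some region, 34 the GC box, 7 the E-box and 23 CCAAT. No such count per gene is given for all regions. Matches to different motifs overlapped in 2 of the members' regions. Member regions held a median of 26 CG dinucleotides, against 7 in all regions, so base composition differs between the sets, and its part in the motif shares was not tested. A match describes letters and not binding.

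Bclaf1 and Thrap3 encode related arginine-serine-rich nuclear proteins that associate with spliced messenger RNA and with the DNA damage response. Bclaf1 (ENSMUSG00000037608, chromosome 10) stood at 176, 179 and 205 CPM in knockout replicates 1 to 3, against 299, 299 and 303 CPM in wild-type replicates 1 to 3. The wild-type libraries lay almost on top of each other, and all 3 knockout libraries were lower. The means were 187 ± 15.8 CPM in knockout and 300.0 ± 2.47 CPM in wild-type (SD, n = 3 each), and the knockout mean was 62.2% of the wild-type mean. The log2 fold change of -0.68 ± 0.13 (SE) ranged from -0.76 to -0.64 with each library left out in turn. These levels rest on 4012, 2572 and 4526 reads in knockout and 5303, 6158 and 5968 in wild-type libraries. The paralogue Thrap3 stood at 121, 109.6 and 124 CPM in knockout replicates 1 to 3, against 181, 113 and 177 CPM in wild-type replicates 1 to 3. Its wild-type libraries were far apart and replicate 2, the library with neutrophil genes, lay within the knockout range. The log2 fold change of Thrap3 was -0.40 ± 0.22 (SE; edgeR adjusted p = 0.898), between -0.59 to -0.29 with each library left out in turn. Per length, Bclaf1 and Thrap3 were close, at 12.2 CPM per kb in knockout and 19.6 in wild-type for Bclaf1 and 12.8 CPM per kb in knockout and 17.0 in wild-type for Thrap3.

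**Figure D2:**
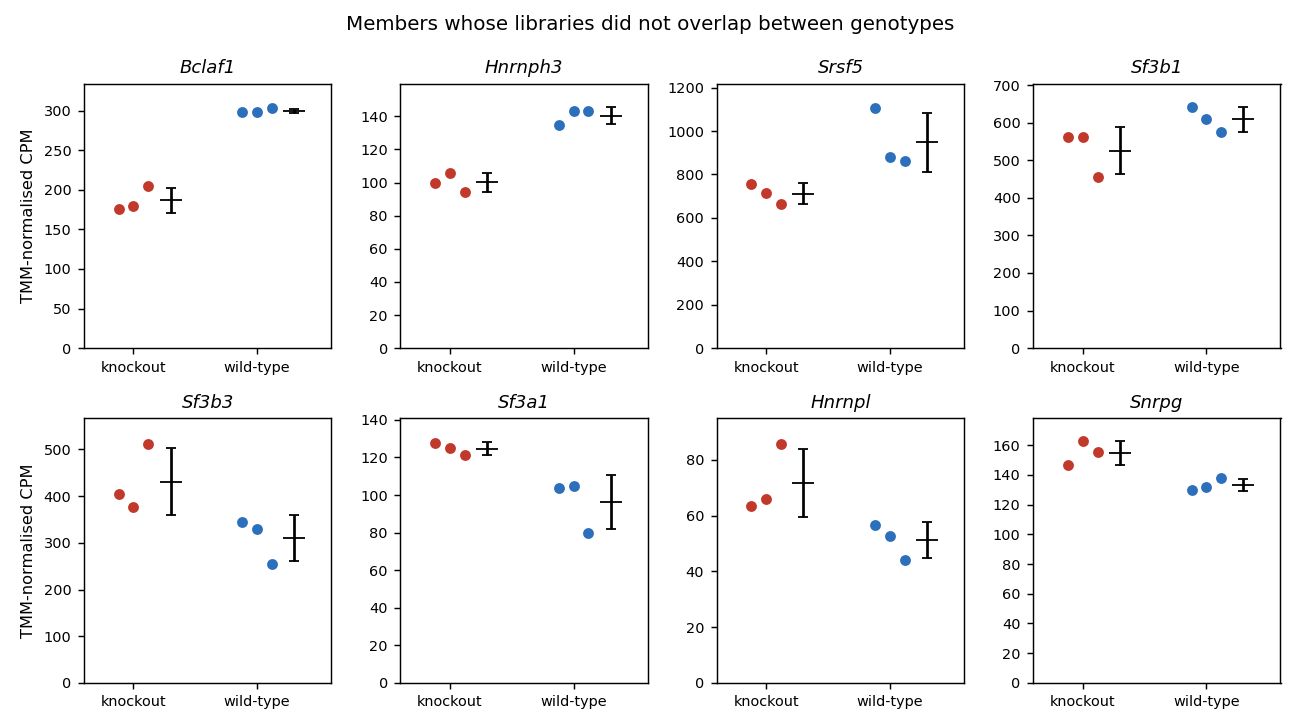
TMM-normalised CPM (y axis, from 0) of the 8 members without overlap between genotypes, with 1 point per library in replicate order and the mean ± SD (n = 3) beside each genotype. Bclaf1, Hnrnph3, Srsf5 and Sf3b1 lie lower in knockout, and Sf3b3, Sf3a1, Hnrnpl and Snrpg lie higher.

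Of the 11 SR protein genes 10 had lower values in knockout, with a median log2 fold change of -0.15, beside 49.1% of all genes lower, and 0 passed the test. With each library left out in turn 8 to 11 of the 11 lay lower, and the median ran from -0.23 without knockout replicate 3 to -0.09 without knockout replicate 1. Srsf5, whose product enhances exon inclusion, stood at 758, 713 and 662 CPM in knockout replicates 1 to 3, against 1106, 880.4 and 861 CPM in wild-type replicates 1 to 3. The 3 knockout values all lay below the 3 wild-type values, and wild-type replicate 1 was the highest. The means were 711 ± 47.7 CPM in knockout and 949 ± 136 CPM in wild-type (SD, n = 3 each), a log2 fold change of -0.42 ± 0.12 (SE; edgeR adjusted p = 0.744, DESeq2 adjusted p = 0.113). Srsf10, a splicing repressor when dephosphorylated, stood at 165, 238 and 262 CPM in knockout replicates 1 to 3, against 203, 381 and 329 CPM in wild-type replicates 1 to 3. Here the genotypes overlapped, since wild-type replicate 1 lay below knockout replicates 2 and 3. The log2 fold change was -0.47 ± 0.27 (SE; edgeR adjusted p = 0.904). Leaving out knockout replicate 1 gave -0.29, and leaving out wild-type replicate 2 gave -0.27. Srsf6, close in sequence to Srsf5, stood at 537, 594 and 585 CPM in knockout replicates 1 to 3, against 625, 579 and 700.1 CPM in wild-type replicates 1 to 3. The knockout values overlapped wild-type replicate 2.

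The remaining SR genes also overlapped between genotypes. Srsf7, which acts in splicing and messenger export, was the most abundant SR gene per length on average, at 256 CPM per kb in knockout and 276 in wild-type. Its libraries stood at 773, 902 and 1049 CPM in knockout replicates 1 to 3, against 877, 976 and 1087 CPM in wild-type replicates 1 to 3. Srsf1 and Srsf2, both classical exon enhancer proteins, had log2 fold changes of -0.19 ± 0.18 and -0.15 ± 0.13, and Srsf3 had -0.07 ± 0.15 (SE, n = 3 per group; edgeR adjusted p from 0.963 to 0.986). Srsf9 had -0.30 ± 0.35, from -0.58 without wild-type replicate 1 to -0.06 without wild-type replicate 3, and Srsf11 had -0.06 ± 0.15. Srsf4 was the only SR gene with a value above 0, 0.02, and it held 102 to 122 CPM in knockout, against 176 CPM in wild-type replicate 1 and 74.5 to 82.9 CPM in the other wild-type libraries. Without wild-type replicate 1 its value was 0.50. The low Srsf12 had no counts in knockout replicates 2 and 3 and in wild-type replicate 3, so its fitted value of -0.33 ± 1.35 says little.

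Summed over the 11 genes, SR transcripts made up 3836, 4087 and 4532 CPM in knockout replicates 1 to 3, against 4911, 4656 and 4677 CPM in wild-type replicates 1 to 3. The sums did not overlap, and the knockout mean was 87.4% of the wild-type mean. Srsf5 made up 39.9% of that difference. Without Srsf5 the sums were 3078, 3374 and 3870 CPM in knockout and 3805, 3776 and 3816 CPM in wild-type, where knockout replicate 3 exceeded every wild-type library. Knockout replicate 1 was the lowest of the 6 libraries for 6 of the 11 SR genes, and for 18 of all 54 members.

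**Figure D3:**
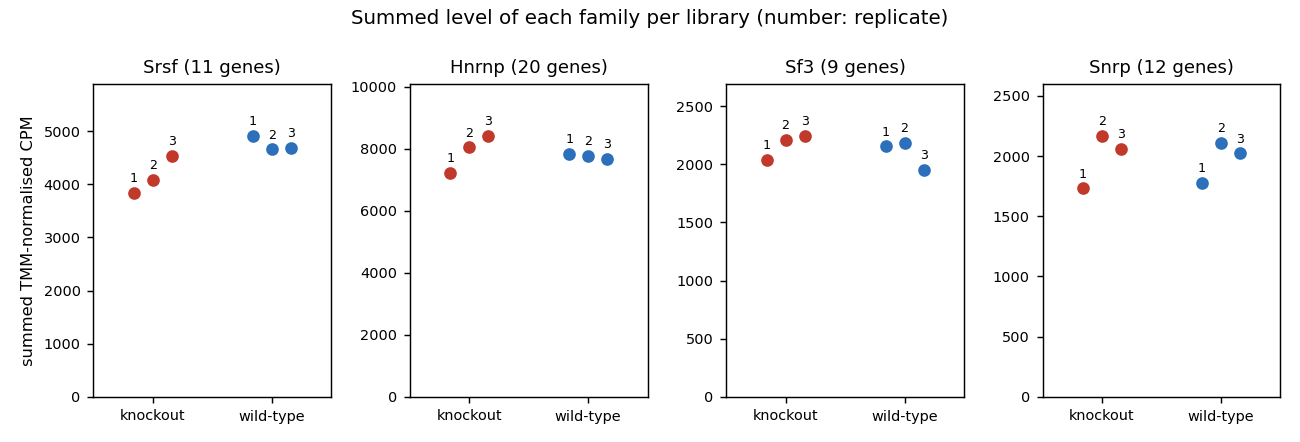
Summed TMM-normalised CPM (y axis, from 0) of each family in each library, knockout left of wild-type, with the replicate number above each point. The Srsf sums of the 3 knockout libraries, 3836 to 4532 CPM, lie below the wild-type sums, 4656 to 4911 CPM, and the other families overlap.

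The 20 hnRNP genes were balanced, with 11 higher and 9 lower in knockout and a median log2 fold change of 0.01, and 12 lay within 0.1 of 0. Without knockout replicate 1 the split was 15 higher and 5 lower. Their sums were 7214, 8044 and 8416 CPM in knockout and 7843, 7778 and 7679 CPM in wild-type libraries. The wild-type sums were tight, and the knockout sums lay on both sides of them. Hnrnph3, a member of the group that binds runs of G, stood at 99.5, 106 and 94.6 CPM in knockout replicates 1 to 3, against 135, 143 and 143 CPM in wild-type replicates 1 to 3. All knockout libraries were lower, and the spread within each genotype was small. The means were 100.1 ± 5.77 CPM in knockout and 140.4 ± 4.95 CPM in wild-type (SD, n = 3 each). The log2 fold change was -0.50 ± 0.17 (SE), which edgeR did not call (adjusted p = 0.769) and DESeq2 did (adjusted p = 0.00894). An exon of Hnrnph3 overlaps Rufy2 on the other strand over 115 bases in the GRCm38 annotation, 3.65% of its exon length.

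Values of the related Hnrnph1 and Hnrnph2 lay above that of Hnrnph3, a difference that was not tested. Hnrnph1 had a log2 fold change of 0.28 ± 0.21 and the X-linked Hnrnph2 of -0.07 ± 0.14 (SE, n = 3 per group; edgeR adjusted p = 0.949 and 0.985). Leaving out 1 library gave Hnrnph1 values from 0.14 to 0.51, the ends being those for wild-type replicates 3 and 1. Per length, the ratio of Hnrnph3 to Hnrnph1 was 0.755, 0.723 and 0.595 in knockout, against 0.849, 1.34 and 1.48 in wild-type libraries. This pair was chosen after its values were seen, from 12 ratios of related genes of which 3 did not overlap, so it carries no test.

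Hnrnpl and Hnrnpll encode related repressors that bind CA-rich RNA, and Hnrnpll directs the splicing of CD45 in lymphocytes. Hnrnpl stood at 63.3, 65.9 and 85.8 CPM in knockout replicates 1 to 3, against 56.7, 52.6 and 44.2 CPM in wild-type replicates 1 to 3. Knockout libraries were higher throughout, with a log2 fold change of 0.50 ± 0.25 (SE; edgeR adjusted p = 0.878). Hnrnpll stood at 86.0, 144 and 168 CPM in knockout replicates 1 to 3, against 111, 69.8 and 108 CPM in wild-type replicates 1 to 3. Its values overlapped between genotypes, with a log2 fold change of 0.46 ± 0.31 (SE; edgeR adjusted p = 0.925). That value was 0.71 with knockout replicate 1 left out, 0.23 with knockout replicate 3 left out and 0.27 with wild-type replicate 2 left out.

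Among abundant hnRNP genes the genotypes were close. Hnrnpab, the highest per length at 331 CPM per kb in knockout and 317 in wild-type, stood at 824, 985 and 957 CPM in knockout replicates 1 to 3, against 763, 938 and 947 CPM in wild-type replicates 1 to 3. Hnrnpk, which binds C-rich RNA, had the highest CPM of all members, 1574 ± 89.5 in knockout and 1588 ± 30.4 in wild-type (SD, n = 3 each). The log2 fold change of Hnrnpk was -0.01 ± 0.08, with the smallest SE among the members. Hnrnpc, Hnrnpf, Hnrnpu, Hnrnpm and Hnrnpa2b1, packaging and scaffold proteins of nuclear RNA among them, had log2 fold changes between -0.04 and 0.02. Hnrnpa0, Hnrnpa1, Hnrnpd, Hnrnpdl, Hnrnpr and Hnrnpul1 lay between -0.07 and 0.16. The low Hnrnpul2 varied widely within each genotype, with up to 18.7 CPM in knockout and 5.07 to 27.2 CPM in wild-type. Hnrnpa3 was at 3.96 CPM in wild-type replicate 3 alone, against 21.8 to 37.1 CPM in knockout and 22.9 and 39.5 CPM in the other wild-type libraries.

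**Figure D4:**
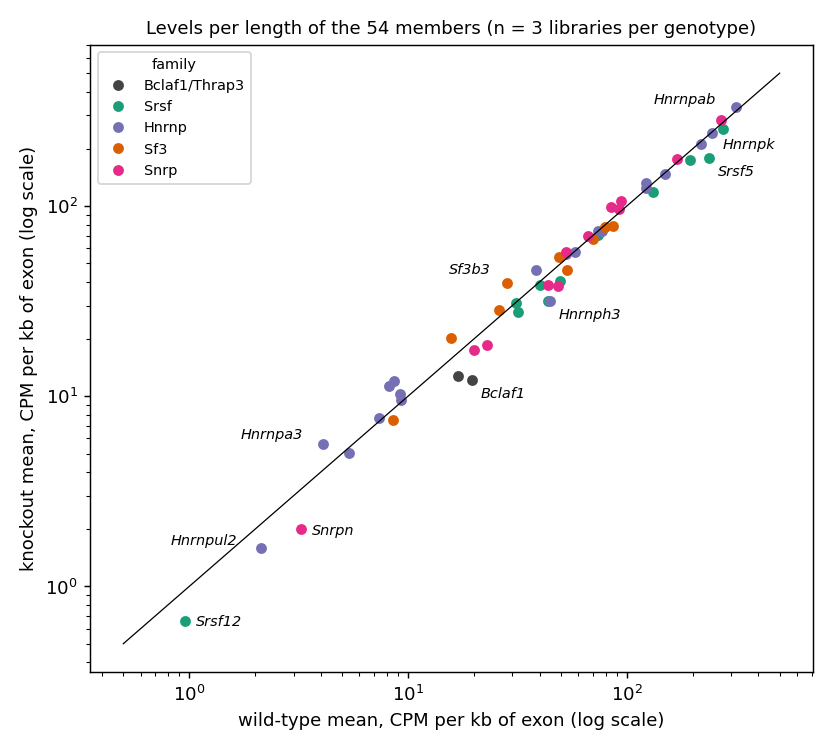
Mean level of each of the 54 members per length, in CPM per kb of annotated exon on log scales, in knockout (y axis) and wild-type (x axis) libraries (n = 3 each), with a line at equal levels. Members span from under 1 CPM per kb (Srsf12) to over 300 (Hnrnpab), and Bclaf1 lies below the line.

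SF3a and SF3b are protein complexes of the U2 snRNP, which recognises the branch point of an intron. Of their 9 genes 4 had higher and 5 lower values in knockout (median log2 fold change -0.04), and that split turned to 7 higher and 2 lower without knockout replicate 1. Sf3b3, a subunit whose fold resembles that of DDB1, stood at 404, 378 and 512 CPM in knockout replicates 1 to 3, against 346, 330.4 and 254 CPM in wild-type replicates 1 to 3. All knockout libraries lay above all wild-type libraries, and knockout replicate 3 was the highest. The means were 431 ± 71.0 CPM in knockout and 309.9 ± 49.1 CPM in wild-type (SD, n = 3 each), a log2 fold change of 0.48 ± 0.17 (SE; edgeR adjusted p = 0.816, DESeq2 adjusted p = 0.391). An exon of Sf3b3 overlaps Cog4 on the other strand over 188 bases, 1.72% of its exon length.

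Sf3a1, which contacts both U2 and U1, stood at 128, 125 and 121 CPM in knockout replicates 1 to 3, against 104, 105 and 80.0 CPM in wild-type replicates 1 to 3. Knockout libraries were higher and close together, with a log2 fold change of 0.37 ± 0.19 (SE; edgeR adjusted p = 0.874). The largest subunit, Sf3b1, which holds the branch point, stood at 561, 562 and 454 CPM in knockout replicates 1 to 3, against 641, 610.0 and 574 CPM in wild-type replicates 1 to 3. Knockout was lower without overlap, though 2 knockout libraries came close to wild-type replicate 3. The log2 fold change was -0.21 ± 0.12 (SE; edgeR adjusted p = 0.901), and leaving out knockout replicate 3 gave -0.11. Per length, the ratio of Sf3b1 to Sf3b3 was 1.33, 1.43 and 0.852 in knockout, against 1.78, 1.77 and 2.17 in wild-type libraries, a pair again picked after its values were seen.

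Sf3b6, the small subunit next to the branch adenosine, was the most abundant Sf3 gene per length on average, at 78.4 CPM per kb in knockout and 86.9 in wild-type, although Sf3a3 was ahead of it in 3 of the 6 libraries. Its libraries stood at 205, 234 and 232 CPM in knockout replicates 1 to 3, against 236, 234 and 275 CPM in wild-type replicates 1 to 3. They overlapped between genotypes in a narrow range. Sf3b2, Sf3b4, Sf3b5, Sf3a2 and Sf3a3 had log2 fold changes from -0.19 to 0.13, and their libraries overlapped too.

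The 12 Snrp genes encode the Sm ring shared by the spliceosomal snRNPs and proteins particular to U1 (Snrpa, Snrpc) or U2 (Snrpa1, Snrpb2). They had 7 higher and 5 lower values in knockout (median log2 fold change 0.05), and 0 reached an unadjusted p under 0.05. The split turned to 5 higher and 7 lower without knockout replicate 2 or 3. Snrpb2 stood at 110.0, 118 and 98.1 CPM in knockout replicates 1 to 3, against 116, 157 and 141 CPM in wild-type replicates 1 to 3. Its genotypes overlapped through knockout replicate 2 and wild-type replicate 1, with a log2 fold change of -0.36 ± 0.19 (SE; edgeR adjusted p = 0.883). Snrpc stood at 116, 139 and 107 CPM in knockout replicates 1 to 3, against 129, 152 and 169.5 CPM in wild-type replicates 1 to 3. Again knockout replicate 2 lay above wild-type replicate 1, and the log2 fold change was -0.33 ± 0.19 (SE; edgeR adjusted p = 0.901). The other U2 gene, Snrpa1, had -0.20 ± 0.22, and the other U1 gene, Snrpa, had 0.05 ± 0.21.

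Of the Sm ring genes, Snrpg stood at 146, 163 and 156 CPM in knockout replicates 1 to 3, against 129.8, 132 and 138 CPM in wild-type replicates 1 to 3. Knockout libraries were higher by a small margin, with a log2 fold change of 0.22 ± 0.15 (SE; edgeR adjusted p = 0.939). Snrpb was the most abundant Snrp gene per length, at 285 CPM per kb in knockout and 269 in wild-type, and its libraries stood at 482, 629 and 578 CPM in knockout replicates 1 to 3, against 454, 566 and 574 CPM in wild-type replicates 1 to 3. Snrpd1, Snrpd2, Snrpe and Snrpf had log2 fold changes between 0.04 and 0.16, and Snrpd3 had -0.19 ± 0.27. The imprinted Snrpn, which encodes a close relative of the Snrpb product, was rare in these cells, with 4.31 ± 2.59 CPM in knockout and 7.03 ± 4.54 CPM in wild-type (SD, n = 3 each). Snrpn shares exons with Snurf and resembles Snrpb, so its level is uncertain. The pseudogene Snrpert, a copy related to Snrpe, held 228, 197 and 263 counts in knockout and 133, 238 and 223 in wild-type libraries, well under the 2293 to 3462 counts of Snrpe in knockout and 1876 to 2862 in wild-type.

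The top of the order of levels within 3 families varied little from library to library. Hnrnpab, Hnrnpk, Hnrnpf and Hnrnpc kept ranks 1 to 4 per length among the Hnrnp genes in all 6 libraries. Snrpb and Snrpf kept ranks 1 and 2 among the Snrp genes in all 6. Srsf7 was first among SR genes in all 3 knockout libraries and in wild-type replicates 2 and 3, whereas Srsf5 was first in wild-type replicate 1.

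In the GENCODE annotation of GRCm38, 26 of the 54 (48.1%) have at least 1 transcript annotated as a target of nonsense-mediated decay, against 29.8% of the 11593 protein-coding genes tested. The share was 9 of 11 for Srsf genes, 10 of 20 for Hnrnp, 4 of 12 for Snrp and 1 of 9 for Sf3 genes. Bclaf1 has 4 such transcripts, Srsf5 has 1, Hnrnph3 has 1 and Sf3b3 has 0. Counts per gene add productive and decaying transcripts, so the levels above do not separate them. Exons of 19 members overlap a gene on the opposite strand in that annotation, and whether reads were counted by strand is not stated in the sources used here. The overlap takes 65.9% of the exon length of Snrpf (with Ccdc38), 43.0% of that of Srsf4 (with Gm12992) and 29.1% of that of Hnrnpab (with Phykpl), so the levels and ranks of these genes are uncertain.

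Other genes of the splicing pathway were taken in 10 lists of 153 genes, of which 152 were tested. By edgeR 0 passed in either direction, 66 lay higher and 86 lower in knockout, and the median log2 fold change was -0.03. At an unadjusted p under 0.05 there were 4 with higher and 6 with lower values, beside 3.47 and 2.35% of all genes. Libraries did not overlap between genotypes for 3 with higher and 9 with lower values, beside 5.91 and 4.43% of all genes (10.3% in either direction). The genes named below were picked by their small p, so their lack of overlap is a description. DESeq2 called 1, Zrsr2, lower in knockout, beside 0.262% of the genes it tested called lower and 0.494% higher. This X-linked gene encodes a protein of 3′ splice site recognition in minor-class introns. Zrsr2 stood at 37.9, 36.7 and 27.2 CPM in knockout replicates 1 to 3, against 103, 56.8 and 74.8 CPM in wild-type replicates 1 to 3. All knockout libraries were lower, at 43.4% of the wild-type mean, with a log2 fold change of -1.20 ± 0.33 (SE; edgeR adjusted p = 0.739, DESeq2 adjusted p = 0.0296). Leaving out knockout replicate 3, which lacked Ddx3y, gave -1.05. The genome also holds a copy of the gene, Zrsr1, so the split of reads between them is uncertain. The list of 3′ splice site genes, with U2af1 at -0.21 ± 0.17, had 2 members higher and 12 lower. Over all genes 49.1% lay lower. The median log2 fold change of this list was -0.12, and only Zrsr2 had an edgeR unadjusted p under 0.05.

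Among 33 other regulators of alternative splicing 13 lay higher and 20 lower. Celf1, which binds GU-rich elements, stood at 96.3, 133 and 136 CPM in knockout replicates 1 to 3, against 157, 227 and 249 CPM in wild-type replicates 1 to 3. Rbm39, a relative of the U2AF large subunit, stood at 607, 537 and 542 CPM in knockout replicates 1 to 3, against 621, 727 and 708 CPM in wild-type replicates 1 to 3. Neither overlapped between genotypes, and the log2 fold changes were -0.81 ± 0.23 and -0.29 ± 0.11 (SE; edgeR adjusted p = 0.739 and 0.837). Of the SR protein kinases, which phosphorylate SR proteins and control their location, 3 of 8 tested lay higher and 5 lower. The kinase gene Clk1 had a log2 fold change of 0.22 ± 0.13 and Dyrk1a of -0.66 ± 0.64. Dyrk1a held 9.09 to 16.9 CPM in knockout and 11.4 to 12.8 CPM in wild-type replicates 1 and 2, but 41.9 CPM in wild-type replicate 3, and its value was 0.22 without that library.

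Snrnp35, a protein gene of the minor U11/U12 snRNP, had the smallest unadjusted p in its list of U1 and 5′ splice site genes, where 7 lay higher and 7 lower. It stood at 9.74 to 22.3 CPM in knockout and 0.609 to 6.47 CPM in wild-type. The levels were low and did not overlap, with a log2 fold change of 2.46 ± 0.73 (SE; edgeR adjusted p = 0.739) that ranged from 1.97 to 3.60 with each library left out. Tial1 in the same list had 0.42 ± 0.53, and 1.02 without wild-type replicate 1. In the Prp19 and catalytic list 14 of 23 lay higher, and the RNA helicase genes Dhx38 and Dhx8 lay on opposite sides, at 1.18 ± 0.45 and -0.67 ± 0.28. The Dhx38 value was 1.85 without wild-type replicate 1. The tri-snRNP list had 10 of 18 higher, with Prpf3 at -0.82 ± 0.39 and Snrnp200 at 0.69 ± 0.37, and Prpf3 stood at -0.31 without wild-type replicate 3. Snrnp200 ran from 0.41 to 1.07 with 1 library left out, the ends being those for wild-type replicates 2 and 3. In the exon junction list 7 of 12 lay higher, with Casc3 at 0.87 ± 0.35 and Srrm1 at -0.18 ± 0.19. Of the nonsense-mediated decay genes 3 of 10 lay higher, with Upf3a at 0.84 ± 0.33 and Smg6 at -0.69 ± 0.37. The SMN complex and methylosome list, which assembles Sm rings, had 4 of 12 higher, with Prmt5 at 0.36 ± 0.26 (from 0.17 to 0.61 with 1 library left out) and Gemin2 at -0.34 ± 0.25 (from -0.50 to -0.20). The Lsm list had 3 of 8 higher, with Lsm2 at 0.21 ± 0.20 and Lsm8 at 0.13 ± 0.16. Of the 20 genes named from the lists 11 moved by over 1.5 times with 1 library left out, and 1, Dyrk1a, changed sign. No gene named in these lists passed by edgeR (adjusted p from 0.739 to 0.971).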

How the data were processed

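The authors deposited raw read counts per Ensembl gene, with 1 column per library. Per the submitters' processing notes, Trimmomatic 0.39, HISAT2 2.2.1, Picard 2.26.1, HTSeq 1.99.2, DESeq2 1.38.3 and the build mm39 were named without roles. The sources used here state neither the annotation release nor the strand setting. Per the labels' protocols, RNA of 50 cells was amplified as full-length cDNA, tagmented and sequenced, and the labels name no molecular identifiers, so a read count is not a count of molecules. Total counts were 14461864 to 22386387 per library, and read totals do not set the precision of a level amplified from so few cells.

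Of 55357 identifiers 94.1% matched a symbol. In R 4.3.3, edgeR 4.0.16 gave the main test, a quasi-likelihood fit (robust, genotype alone in the model) with TMM factors over the 14592 genes kept by filterByExpr (minimum count 10). P-values were adjusted by Benjamini-Hochberg. SEs came from the F statistic. DESeq2 1.42.0 and limma-voom with a quality weight for each library (limma 3.58.1) were alternatives. Further alternatives were other factors, filters, the legacy fit, removal of the 20 most abundant and mitochondrial genes, a replicate block and each library left out. Levels per length used union exon length in GENCODE M21 (GRCm38), another build than the counts, so gene coordinates are not given apart from RefSeq start regions. Marker levels are CPM of total counts.

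The genes named were Bclaf1 and Thrap3, the 3 members of each family with the smallest p, the most abundant per length, those without overlap between genotypes, and the 2 genes of each splicing list with the smallest p. Other members are given by value or range to account for each family. The members and lists were chosen with earlier results of these data known.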

Additional observations from a re-analysis of the deposited data

How the results depend on the processing

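Over the 14 alternatives other than DESeq2, edgeR and limma-voom called 0 genes and 0 members, and limma-voom gave 775 of all genes an unadjusted p under 0.05. DESeq2 called 153 genes and 2 members, Bclaf1 and Hnrnph3. The count of members at an unadjusted p under 0.05, 4 in the main fit, ranged from 2 to 7 with 1 library left out. With 1 library left out the count without overlap between genotypes, 8, became 10 to 17, and fewer libraries overlap less often. The shares of all genes in those fits are not given here, so neither range has a background. The median log2 fold change of the members, -0.03, ranged from -0.11 to 0.017. Of 270 values of 18 named genes 265 kept their direction and side of the threshold. With 1 library left out Snrpb ranged from -0.023 (wild-type replicate 1) to 0.178, with -0.0032 without knockout replicate 2, and Hnrnpab from -0.035 (wild-type replicate 1) to 0.134, so both changed sign near 0, and the cause was not tested. The labels give no pairing of the samples by replicate number. Same-numbered libraries had deviations from their group means that correlated at 0.0593, -0.0381 and 0.00580. No sign of pairing was seen, but 3 libraries per group cannot exclude it. With the number as a replicate block 0 members were called, 4 had an unadjusted p under 0.05 and the median was -0.03. Srsf12, Snrpn and Hnrnpul2 had few counts in some libraries, which did not follow the library totals: Srsf12 had 142 counts in knockout replicate 1 and 0 in knockout replicate 3, at 22386387 and 22154703 counts in all.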
